A study of Homo sapiens with 6 samples.

Results

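The integrin alpha subunits described here are those of the RGD-binding, alpha 9 and leukocyte types: of 770 genes on a cancer progression panel, 4 rows carry an ITGA symbol that is not one of the collagen- or laminin-binding alpha subunits. They are ITGA5, ITGA9, ITGA8 and ITGAM, chosen by symbol. Expression was measured in 2 lines of the human melanoma cell line A375, both carrying the BRAF V600E mutation and, by their catalogue names, a luciferase reporter. In one line the small GTPase NRAS has the activating Q61K change, and NRAS signals through the RAF, MEK and ERK kinases, while the isogenic other line has wild-type NRAS. Both were grown in serum-containing medium without treatment, and analysed within 5 population doublings of thawing. Total RNA was taken from 3 samples of each line, and whether the mutant line is 1 clone is not given in the labels. No NRAS or BRAF transcript value was used here to check the genotypes. In such bulk RNA, fewer cells with a transcript and less of it per cell cannot be told apart.

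Integrins are cell-surface receptors made of 1 alpha and 1 beta chain, and the alpha chain largely sets which ligand is bound. ITGA5 and ITGA8 encode chains that pair with the beta 1 chain (ITGB1) and bind ligands through an arginine-glycine-aspartate (RGD) motif, fibronectin being the ligand of the ITGA5 receptor. ITGA9 also pairs with ITGB1 but binds tenascin C, osteopontin, EMILIN1, VCAM1 and some ADAM and VEGF proteins. ITGAM (CD11b) pairs with ITGB2 on myeloid and natural killer leukocytes, where it binds ICAM1 and complement C3 fragments.

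The nCounter assay counts fluorescent barcodes hybridized to RNA, with 1 probe pair per gene, so the levels of different genes are not set against each other here. Values are normalized counts, that is, background-subtracted counts scaled so that 30 housekeeping genes agree between samples. Total counts before that scaling were 1158480 to 1189624 in NRAS Q61K samples and 1224176 to 1264674 in NRAS wild-type samples. A detection floor of 129.7 was set at the mean plus 2 SD of the 8 negative control probes as deposited. Unlike the gene values, these control values do not carry the housekeeping scaling, and the same floor was applied to the scaled gene values of both lines. Of 740 endogenous genes, 454 averaged above it over the 6 samples and were tested with limma, with p-values adjusted over all of them by Benjamini-Hochberg and called under 0.05. The labels do not say whether the 3 samples of a line are separate cultures, so the p-values measure the spread between these samples, which may be technical. Most of the panel differed between the lines: 83% of tested genes were called, 62.1% as higher and 20.9% as lower in NRAS Q61K cells. For all tested genes the median log2 difference was 0.32 as deposited, -0.13 after rescaling samples to equal medians, -0.10 after quantile normalization and -0.0080 without the housekeeping factors, so small rises are given under each scaling. With equal medians 78.4% of tested genes were called, 33% as higher and 45.4% as lower. Without the factors 73.8% were called, 38.5% as higher and 35.2% as lower, and after quantile normalization 78.2%, with 34.4% higher and 43.8% lower. All 4 melanoma markers that the panel holds (MCAM, CSPG4, SOX9, ERBB3) passed as higher in NRAS Q61K cells, and the pan-leukocyte marker PTPRC was at the table's minimum in all samples of both lines.

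ITGA5 was the 1 member of the 4 that averaged above the floor, and it was higher in NRAS Q61K cells. It had 6414, 6341 and 6429.5 normalized counts in the NRAS Q61K samples, against 4487, 4444 and 4438 in the NRAS wild-type samples. The values of the lines had no overlap, as for 84.1% of tested genes (63% with NRAS Q61K higher). The fitted difference was 1.43-fold (95% interval 1.37 to 1.499), a log2 difference of 0.52 ± 0.026 (SE, limma adjusted p = 3.71e-06). A rise of this kind was common on the panel, where 36.3% of the tested genes had a larger difference than ITGA5 and its excess over the panel median was 0.20 on the log2 scale. Without the housekeeping factors ITGA5 remained called at 0.19 (adjusted p = 0.00116), and after quantile normalization at 0.093 (adjusted p = 0.00319), both by limma. After rescaling to equal medians the log2 difference was 0.069 and did not pass (limma adjusted p = 0.111). That rescaling lowers all genes together and leaves the excess of ITGA5 over the panel median as it was.

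**Figure D1:**
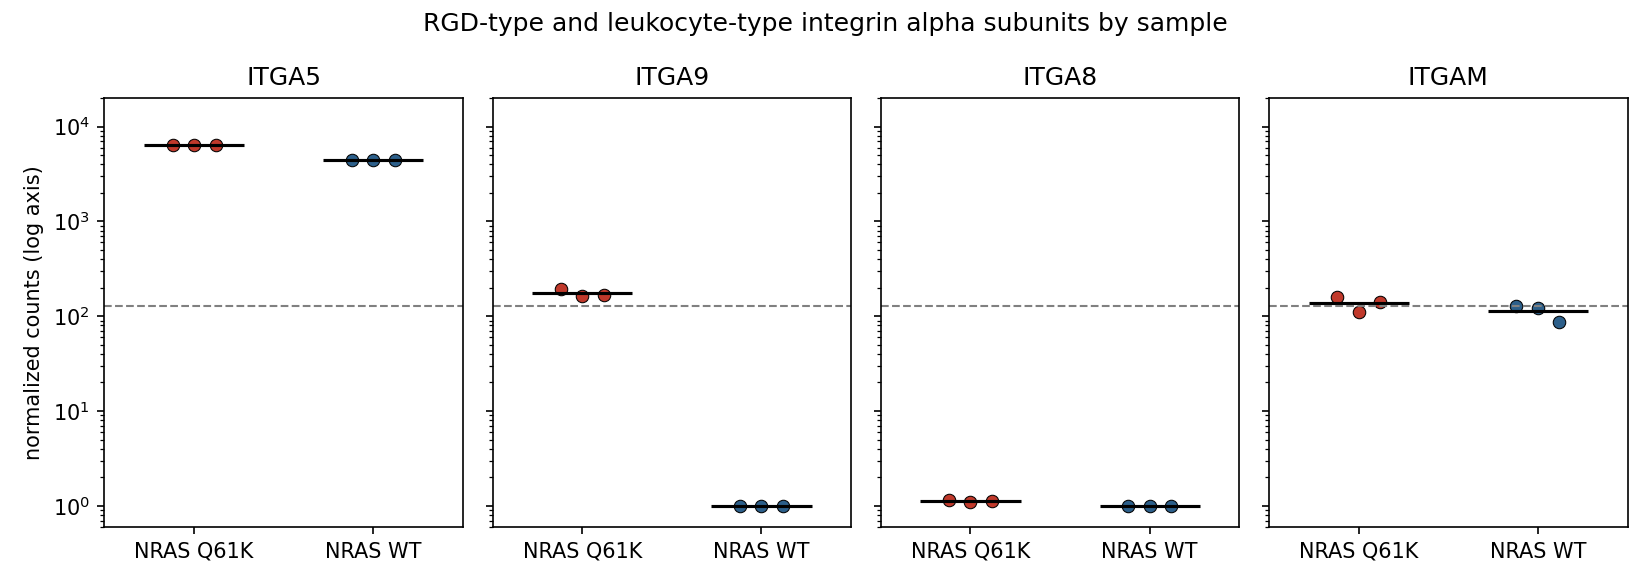
Normalized counts (log axis) of the 4 alpha subunit genes in the NRAS Q61K (left, red) and NRAS wild-type (WT, right, blue) samples, with 3 points per line, a bar at the mean and a dashed line at the detection floor of 129.7. ITGA5 is far above the floor in both lines, ITGA9 is above it in the NRAS Q61K samples alone, ITGA8 is at the minimum and ITGAM lies about the floor.

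ITGB1, the beta chain that ITGA5 requires, was 1.35-fold higher (9227 ± 128 in NRAS Q61K against 6852 ± 95.8 normalized counts in NRAS wild type, SD, n = 3 each; limma adjusted p = 1.48e-05) on the deposited scale, and did not pass with equal medians (log2 difference -0.023, limma adjusted p = 0.516) or after quantile normalization (0.027, limma adjusted p = 0.283). The ratio of the ITGA5 value to the ITGB1 value cancels any scaling of a sample. It was 0.685, 0.697 and 0.697 in the NRAS Q61K samples, against 0.645, 0.656 and 0.650 in the NRAS wild-type samples. The ratios of the lines did not overlap, and the ITGA5 rise exceeded that of ITGB1 by 1.07-fold, or 0.092 ± 0.024 on the log2 scale (SE, 95% interval 0.033 to 0.150, limma adjusted p = 0.0120). In the same fit 78.1% of 453 genes were called, 34.4% were higher relative to ITGB1 and 43.7% lower. In these samples the ITGA5 and ITGB1 transcripts therefore differed by nearly the same factor. The small excess of ITGA5 is set against a spread between samples that may be technical.

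**Figure D2:**
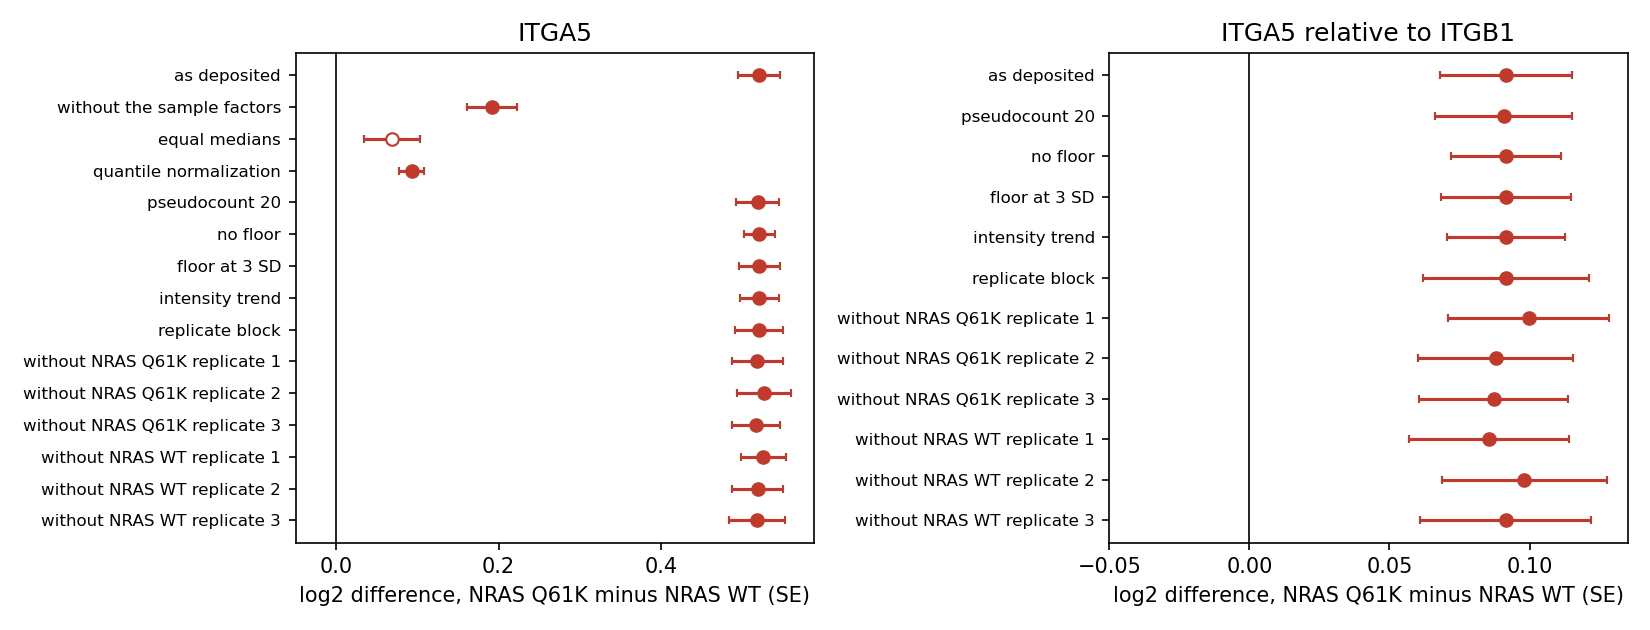
Log2 difference (NRAS Q61K minus NRAS WT) of ITGA5, left, and of ITGA5 relative to ITGB1 in the same sample, right, under each processing setting, with bars of 1 SE; filled points have a limma adjusted p under 0.05 and the vertical line is at 0. The left value ranges from 0.069 (equal medians, open point) to 0.53, and the right value from 0.085 to 0.0998 with ITGB1 as the partner.

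ITGA9, on chromosome 3, was listed at the minimum of 1 in all 3 NRAS wild-type samples and was detected in NRAS Q61K cells. It had 192.6, 163 and 167.4 normalized counts in the NRAS Q61K samples, all above the floor. The samples did not overlap, as for 76.8% of all endogenous genes (59.1% with NRAS Q61K higher). Against the floor this is at least 1.34-fold higher in NRAS Q61K cells (174 ± 15.9, SD, n = 3). Of 114 endogenous genes listed at 1 in every NRAS wild-type sample, ITGA9 was the only one above the floor in every NRAS Q61K sample. This depends on the cutoff, and 75 endogenous genes stood at the minimum in all 6 samples. ITGA11, a collagen receptor chain also at 1 in every NRAS wild-type sample, had 154.3, 126.4 and 120.4 in the NRAS Q61K samples. The ITGA9 mean over 6 samples, 87.7, was under the floor, so ITGA9 was not among the tested genes. An exact 2-sided permutation test on ITGA9 alone gave p = 0.10, the smallest that 3 against 3 samples allow. Its NRAS wild-type values all stand at the table's minimum and so have no spread of their own, and no fitted size or model p is given. The level in NRAS Q61K cells is low: the brightest negative control value, multiplied by its sample's factor, was 151.9, and the 3 ITGA9 values lie above it. After the other 3 scalings the least fold was 1.15 to 1.19. Without the housekeeping factors, which the control values behind the floor do not carry, the ITGA9 values in NRAS Q61K samples were 165.8, 146.8 and 149.5.

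ITGA8 stayed at the lowest value of the table, at 1.16, 1.11 and 1.12 normalized counts in the NRAS Q61K samples and 1 in each NRAS wild-type sample. The small offset equals the scaling factor of each NRAS Q61K sample (1.16, 1.11 and 1.12), so the transcript was not detectable in either line. It was 1 of 75 endogenous genes at the minimum in all 6 samples. With no floor, limma called this offset as higher in NRAS Q61K cells (adjusted p = 0.0104, where 70% of 740 genes were called, 53% as higher and 17% as lower), so calls from that fit at the minimum are not used.

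ITGAM lay about the floor, with 157.8, 110.9 and 140.5 normalized counts in the NRAS Q61K samples and 129.3, 121.7 and 86.3 in the NRAS wild-type samples. The lines overlapped. In the fit without a floor the log2 difference was 0.28 (95% interval -0.27 to 0.83, limma adjusted p = 0.287), and an exact 2-sided permutation test gave p = 0.40. The negative control probe NEG_H, scaled like the genes, had 124.2 to 150.6 in NRAS Q61K samples and 112.3 to 129.8 in NRAS wild-type samples, and ITGAM exceeded it in 1 of 3 samples of each line. A level distinct from background was not detectable. Its beta chain gene ITGB2 averaged 251 ± 21.7 and 219.5 ± 27.96 normalized counts (NRAS Q61K and NRAS wild type, SD, n = 3 each) and did not pass on the deposited scale (1.15-fold, limma adjusted p = 0.133), while with equal medians it was lower (log2 difference -0.25, limma adjusted p = 0.0486). The ITGAM to ITGB2 ratio was 0.542 ± 0.0712 in NRAS Q61K samples and 0.509 ± 0.0447 in NRAS wild-type samples (SD, n = 3 each). Of 6 leukocyte markers on the panel, PTPRC and CCR2 were at the minimum in all samples, CD163 averaged 3.18 and 3.06, SYK 34.0 and 1, CSF2RB 144.7 and 98.0 and CXCR4 137.6 and 127.7 normalized counts (NRAS Q61K and NRAS wild type). The summed level of these markers was 272.6 to 374.5 in NRAS Q61K samples and 217 to 248 in NRAS wild-type samples, and CXCR4, the 1 tested marker, did not pass (limma adjusted p = 0.652), though it was called higher without NRAS Q61K sample 2 (limma adjusted p = 0.0365).

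RefSeq promoter sequences (GRCh38.p14, 250 bases before to 50 after the annotated start) matched 3 of the 4 members and are shown because 1 of these genes (ITGA5) was well above the floor, 1 (ITGAM) near it and 1 (ITGA8) at the minimum. Capitals mark matches, on either strand, to the AP-1 motif TGACTCA, the GC box GGGCGG and the TATA box TATAAA. The windows are chr12:54419217-54419516 for ITGA5 and chr10:15719873-15720172 for ITGA8, both on the minus strand, and chr16:31259725-31260024 for ITGAM on the plus strand.
ITGA5: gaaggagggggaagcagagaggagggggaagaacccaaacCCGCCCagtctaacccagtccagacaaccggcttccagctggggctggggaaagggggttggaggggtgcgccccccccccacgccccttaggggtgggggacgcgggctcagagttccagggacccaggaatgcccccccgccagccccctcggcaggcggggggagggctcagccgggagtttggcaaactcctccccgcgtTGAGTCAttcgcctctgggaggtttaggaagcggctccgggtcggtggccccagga
ITGA8: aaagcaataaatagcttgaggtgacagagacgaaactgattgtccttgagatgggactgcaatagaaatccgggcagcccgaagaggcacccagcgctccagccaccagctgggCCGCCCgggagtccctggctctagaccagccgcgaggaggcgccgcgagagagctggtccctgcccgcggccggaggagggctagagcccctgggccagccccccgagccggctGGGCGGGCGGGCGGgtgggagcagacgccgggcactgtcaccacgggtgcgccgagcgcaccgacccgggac
ITGAM: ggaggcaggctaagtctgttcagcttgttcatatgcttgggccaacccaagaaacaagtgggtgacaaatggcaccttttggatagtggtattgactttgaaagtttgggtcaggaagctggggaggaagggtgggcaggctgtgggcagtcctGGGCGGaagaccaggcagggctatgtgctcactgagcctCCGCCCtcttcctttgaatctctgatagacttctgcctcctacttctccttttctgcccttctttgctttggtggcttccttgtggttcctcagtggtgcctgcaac
The ITGA5 window held 1 AP-1 match, starting 6 bases before the start, and the other windows held none. This motif occurred in 4.95% of 35116 RefSeq promoter windows. GC boxes numbered 1 for ITGA5, 4 for ITGA8, overlaps included, and 2 for ITGAM, a motif present in 45% of windows, and no window held a TATA box, present in 11.5%. CpG dinucleotides numbered 16 for ITGA5, 27 for ITGA8 and 2 for ITGAM, against a median of 14 over all windows. The undetected ITGA8 had the most CpG dinucleotides of the 3. A match is a description of the letters and no evidence of binding.

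Collagen- and laminin-binding alpha subunits differed by more than ITGA5 in several cases. ITGA1, a collagen receptor chain, was 24.7-fold higher relative to ITGB1 (limma adjusted p = 4.49e-09) and ITGA6, a laminin receptor chain, 2.62-fold (limma adjusted p = 1.40e-07), where ITGA5 was 1.07-fold higher. ITGA3, a laminin receptor chain, was 1.12-fold higher relative to ITGB1 (limma adjusted p = 0.00133), a value near that of ITGA5, and the collagen receptor chain ITGA2 was lower, at 0.578 of the NRAS wild-type ratio (limma adjusted p = 8.24e-07). ITGA7, a laminin receptor chain, was at least 2.85-fold higher on the deposited scale, since the NRAS wild-type mean was below the floor. ITGA11, a collagen receptor chain, was not tested, with 154.3, 126.4 and 120.4 normalized counts in the NRAS Q61K samples and 1 in each NRAS wild-type sample, so that 1 of 3 NRAS Q61K values was above the floor. Of the 5 tested members of that group 4 were higher (80%) and 1 lower, under all 4 scalings. Of all tested genes 62.1% were higher and 20.9% lower as deposited. Under the other scalings 33% to 38.5% were higher and 35.2% to 45.4% lower.

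**Figure D3:**
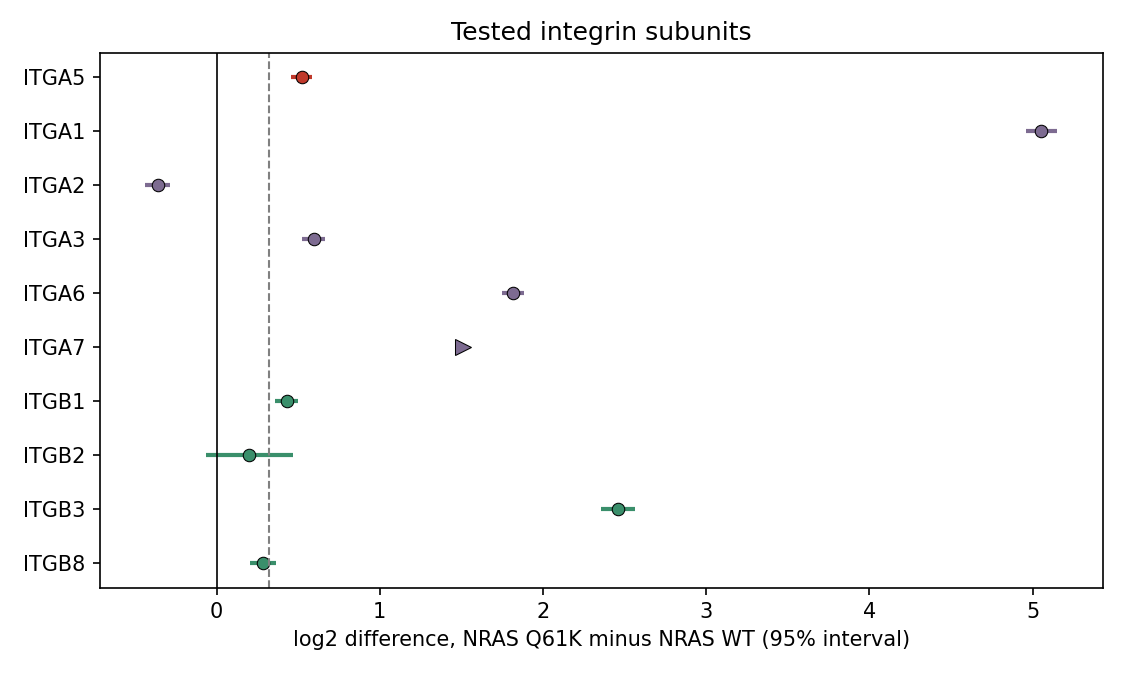
Log2 difference (NRAS Q61K minus NRAS WT, deposited scale) of tested alpha and beta subunits with 95% intervals (limma); the triangle for ITGA7 is a lower bound, and the dashed line is the panel median of 0.32. ITGA5 at 0.52 lies between ITGB1 at 0.43 and ITGA3 at 0.60, while ITGA1, ITGA6 and ITGB3 lie above 1.8.

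The other beta chains known to pair with alpha subunits of these types went different ways. ITGB3, which pairs with the alpha V and alpha IIb chains, was 5.49-fold higher (6244 ± 293.5 in NRAS Q61K against 1135 ± 22.2 normalized counts in NRAS wild type, SD, n = 3 each; limma adjusted p = 5.87e-08) and held under each scaling. ITGB8, which pairs with alpha V, was 1.22-fold higher on the deposited scale (limma adjusted p = 0.000270), but lower after equal medians (log2 difference -0.17, limma adjusted p = 0.00422) and quantile normalization (-0.099, limma adjusted p = 0.0110). ITGB7, which pairs with the alpha 4 and alpha E chains of lymphocytes, had 12.6, 1.11 and 1.12 normalized counts in NRAS Q61K samples, against 305, 218.3 and 236.3 in NRAS wild-type samples. It averaged just under the floor over the 6 samples, so it was not tested, and was at least 1.95-fold lower in NRAS Q61K cells. As NRAS Q61K values of 1.11 and 1.12 stand at the minimum, its call in the fit without a floor is not used. ITGB6, an epithelial partner of alpha V, was at the minimum in both lines. No row carried the symbol of the alpha V, alpha IIb, alpha 4 or alpha E gene, so these chains could not be analysed here.

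Ligands of RGD, alpha 4 and alpha 9 integrins, some of which bind alpha V or alpha 4 receptors rather than those of the members, were measured in the same cells. Of a list of 53 genes, 24 were on the panel and 16 tested. Of these 10 were higher, 3 lower and 3 did not pass, a share of higher genes of 62.5% against 62.1% on the whole panel. Their median log2 difference was 0.28, against 0.32 for all tested genes. FN1, the fibronectin ligand of the ITGA5 receptor, was 10.8-fold higher (limma adjusted p = 4.38e-08). Ligands of the ITGA9 receptor moved in both directions. TNC, encoding tenascin C, was 6.16-fold higher (limma adjusted p = 4.38e-08), and EMILIN1, encoding an elastic-fibre glycoprotein, at least 5.00-fold higher, at 648 ± 16.4 in NRAS Q61K against 47.0 ± 10.8 normalized counts in NRAS wild type (SD, n = 3 each). The SPP1 gene for osteopontin was 2.34-fold lower (limma adjusted p = 2.01e-07) and the VEGFC gene for a lymphangiogenic growth factor 1.36-fold lower (limma adjusted p = 6.11e-05). VCAM1 was at the minimum in both lines. THBS1, encoding the matricellular protein thrombospondin 1, had the largest fall of the tested ligands, with 4596 ± 43.6 normalized counts in NRAS Q61K and 29313 ± 465 in NRAS wild type (SD, n = 3 each), 6.38-fold lower (limma adjusted p = 2.21e-08) and lower under every scaling. ADAM15, a membrane metalloprotease, was 1.19-fold higher on the deposited scale (limma adjusted p = 0.000698) but lower after equal medians (log2 difference -0.21, limma adjusted p = 0.00816) and quantile normalization (-0.15, limma adjusted p = 0.00400). ADAM9, a related metalloprotease, did not pass on the deposited scale (1808 ± 50.6 in NRAS Q61K against 1762 ± 56.9 normalized counts in NRAS wild type, SD, n = 3 each) and was lower with equal medians (log2 difference -0.41, limma adjusted p = 9.81e-05). After rescaling to equal medians, 6 of the 16 ligands were higher and 7 lower, where 33% and 45.4% of all tested genes were.

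The panel held 7 ligands of leukocyte integrins, and of the 4 tested, ICAM1 and JAM3 (2 genes) were higher. That is 50%, against 62.1% of all tested genes. ICAM1, an adhesion molecule bound by ITGAM with ITGB2, was 2.24-fold higher (1025 ± 38.3 in NRAS Q61K against 457 ± 20.4 normalized counts in NRAS wild type, SD, n = 3 each; limma adjusted p = 1.55e-06). JAM3, a junctional molecule also bound by that receptor, was 1.85-fold higher (limma adjusted p = 2.17e-06), and both held under each scaling. C3 (235.6 ± 17.6 in NRAS Q61K against 232.6 ± 12.1 normalized counts in NRAS wild type) and F11R (345.6 ± 41.3 in NRAS Q61K against 317.5 ± 8.67 normalized counts in NRAS wild type) did not pass on the deposited scale (SD, n = 3 each) and were lower under the other 3 scalings, while without NRAS Q61K sample 3 F11R was called higher (limma adjusted p = 0.0250). The panel held 13 genes of the adhesion machinery, and of the 10 tested, 6 passed as higher (60%) and 2 as lower, with a median log2 difference of 0.33, shares and a median near those of the panel (62.1%, 20.9% and 0.32). PTK2, encoding focal adhesion kinase, was 1.74-fold higher (limma adjusted p = 2.20e-06) and SRC, a kinase that acts with it, 1.53-fold (limma adjusted p = 8.48e-06). FERMT2, encoding kindlin 2, which activates integrins through the beta chain tail, was 1.13-fold lower (limma adjusted p = 0.00180), and CAV1, encoding the membrane scaffold caveolin 1, 1.58-fold lower (limma adjusted p = 1.92e-06). After rescaling to equal medians 3 of the 10 were higher and 5 lower, against 33% and 45.4% of the panel, with PTK2, SRC and TGFBR2 the higher ones. RAC1, called higher as deposited (log2 difference 0.19), was called lower under the other 3 scalings. RHOA and CDC42, which did not pass as deposited, were also called lower under those scalings.

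**Figure D4:**
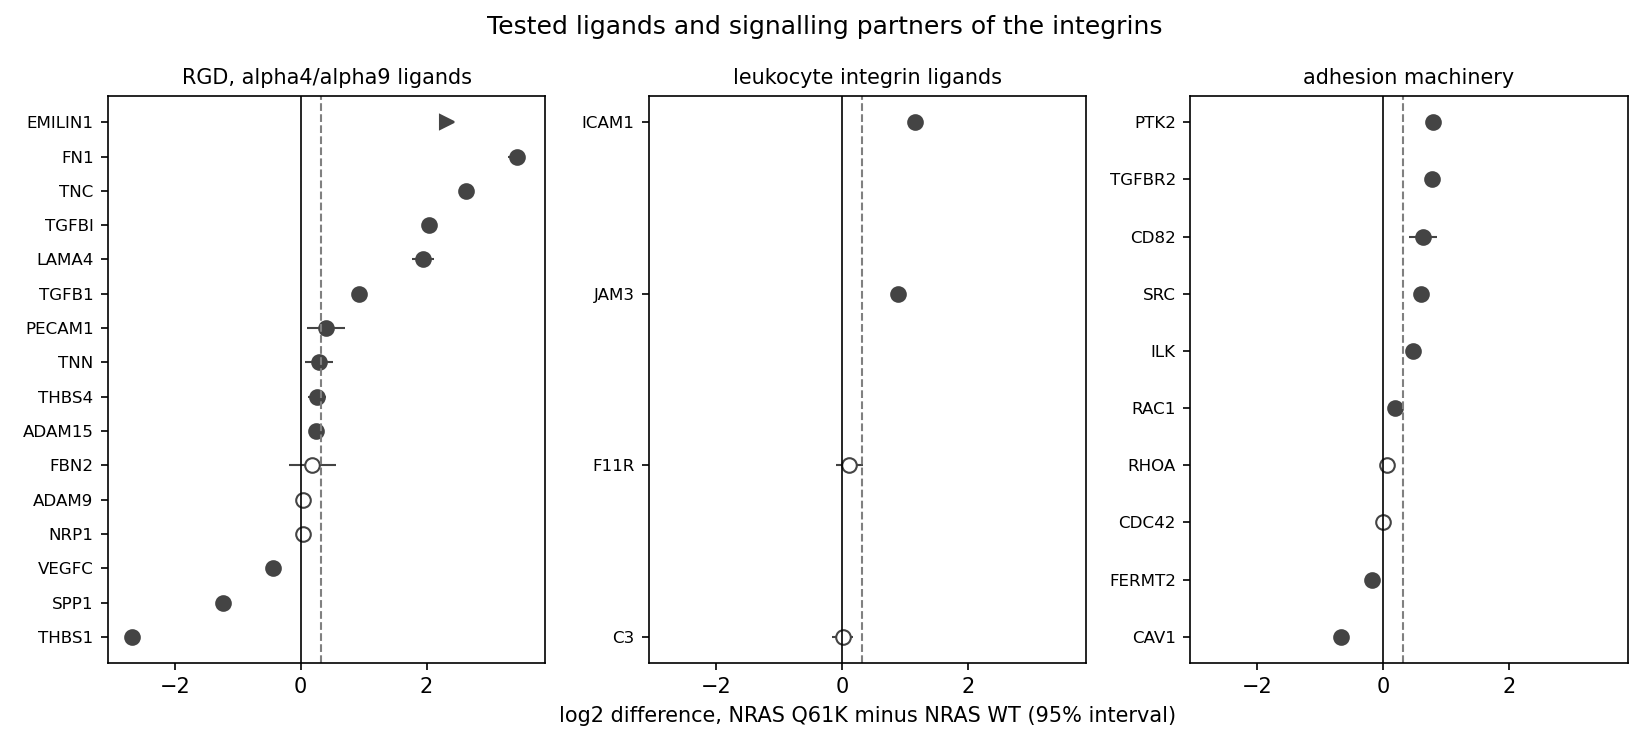
Log2 difference (NRAS Q61K minus NRAS WT, deposited scale) of tested ligands of RGD and alpha 4 or alpha 9 integrins, ligands of leukocyte integrins and adhesion machinery genes, with 95% intervals (limma). Filled points have an adjusted p under 0.05, the triangle for EMILIN1 is a lower bound and the dashed line is the panel median of 0.32; FN1 and TNC lie highest among the fitted values and THBS1 lowest.

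Across the 6 samples the genes most like ITGA5 in pattern, by Pearson's correlation of log2 values, were SPARC (r = 0.9998) and CSPG4 (r = 0.9998), of 453 genes compared. The samples form 2 lines, so that r mainly reflects the difference between lines, and 146 genes had r above 0.99. SPARC, a collagen-binding matricellular protein gene, averaged 35709 ± 372 and 10869 ± 271 normalized counts, and CSPG4, a melanoma proteoglycan gene, 4355 ± 101 and 1303 ± 24.2 (NRAS Q61K and NRAS wild type, SD, n = 3 each).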

How the data were processed

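Per the labels, the nCounter PanCancer Progression panel was run on total RNA of 6 samples, which were grouped by title. The deposited signal is normalized and linear. How the authors set background and scaling is not given in the sources used here. From the deposited values, each gene value is a whole count minus a constant, multiplied by 1 factor per sample (1.11 to 1.16 in NRAS Q61K and 0.898 to 0.903 in NRAS wild-type samples), with a minimum of 1. All gene values between 1.5 and 400 were whole within 0.03 once the factor and constant were removed. As the constant is unknown beyond its fraction, no count test was used. The file does not mark the 30 housekeeping genes, which were taken from knowledge of the panel's design, and their geometric mean was 728 to 733 in every sample.

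For genes above the floor, limma 3.58.1 (lmFit and eBayes, R 4.3.3) was run on log2(value + 1), which understates changes of low genes, and the fit was tested on simulated data. Where 1 line's mean was under the floor, a fold is given as a bound against it. The rule by symbol that gave the members, and the lists, were chosen with earlier results of these data known. All members and list genes with a role described were eligible for naming, with the 2 genes most correlated with each tested member. Symbols matched the GRCh38.p14 gene table for 770 rows (755 current, 15 older). The 5 lists were beta partners, both kinds of ligands, adhesion machinery and the collagen- and laminin-binding alpha subunits, and marker lists covered leukocytes, melanoma, endothelium, platelets and fibroblasts. Of these markers, 3 of 4 tested endothelial genes (PECAM1, KDR, FLT1) and 3 of 4 tested fibroblast genes (LUM, FAP, PDGFRB) were higher on the deposited scale. That is 75% of each, against 62.1% of all tested genes. PECAM1 and FAP did not pass under the other 3 scalings. ROBO4 was lower, and DCN passed only without NRAS Q61K sample 3 (255 ± 46.5 in NRAS Q61K against 216 ± 6.68 normalized counts in NRAS wild type, SD, n = 3 each). No platelet gene was on the panel.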

Additional observations from a re-analysis of the deposited data

How the results depend on the processing

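Rescaling to equal medians gave ITGA5 a log2 difference of 0.069, and 0 members called higher, against 1 as deposited. With no floor 3 members were called higher (ITGA5, ITGA9, whose NRAS wild-type values all stand at the minimum, and ITGA8, at the minimum throughout). In that fit 53% of 740 genes were called higher and 17% lower. No member was called lower under any setting. The log2 difference of ITGAM, never called, was 0.28 as deposited, -0.043 without the sample factors, -0.17 with equal medians and -0.082 after quantile normalization, and 0.10 to 0.42 when 1 sample was left out. The least fold of ITGA9 was 1.34 as deposited, 1.19, 1.15 and 1.16 under those scalings, and 1.27 to 1.39 when 1 sample was left out. At a floor 3 SD above the control mean (178.7) it has no bound, since its NRAS Q61K mean lies below. Leaving out 1 sample gave ITGA5 0.52 to 0.53, with 1 member called higher each time. Relative to ITGB1 it gave 0.085 to 0.0998 and the call held, as under the other settings. But relative to the mean of the 5 tested beta subunits the ITGA5 difference turned to -0.41 (limma adjusted p = 2.24e-05). That mean holds ITGB3 and also ITGB4, which is outside the list of beta partners. Over the panel 282 genes were higher and 95 lower as deposited, 175 and 160 on unfactored values, 156 and 199 after quantile normalization and 150 and 206 with equal medians. Leaving out 1 sample moved the ligands of RGD and alpha 9 integrins called higher to 8 to 11, against 10. Same-numbered samples of the lines correlated in their deviations at 0.22, 0.053 and 0.066, and differently numbered samples at -0.17 to 0.091. These values do not settle whether the numbers pair the samples. With the replicate block ITGA5 was at 0.52 (limma adjusted p = 0.000120) and at 0.092 relative to ITGB1 (limma adjusted p = 0.0431), and ITGB2 was called higher (limma adjusted p = 0.0263). Low signal over background limits what can be said of ITGA9, ITGA8 and ITGAM.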
